A study of Mus musculus with 60 samples.

Results

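Coat colour divided the FVBBX mice of this study into Agouti and White, and the rule took every tumour by that label: 31 carcinomas from 27 Agouti mice and 29 carcinomas from 28 White mice, which together are all 60 arrays of the series. FVBBX mice are the offspring of hybrids of SPRET/Ei (Mus spretus) with FVB/N that were crossed back to FVB/N, so at each autosomal locus a mouse carries either 1 SPRET/Ei allele or none. All of them, Agouti and White, had their dorsal back skin treated with the carcinogen DMBA and the tumour promoter TPA, and no untreated group is part of this comparison. Total RNA of whole carcinomas was hybridised to Affymetrix Mouse Genome 430 2.0 arrays, and values are log2 expression after RMA. Both coats included squamous cell carcinomas (SCC; 19 Agouti and 16 White mice) and spindle carcinomas (5 Agouti and 8 White mice), with histology not given for 3 Agouti and 4 White mice. The p53 label was mutant in 6 Agouti and 8 White mice and not mutant in 21 Agouti and 20 White mice. A label of origin, whose meaning the sources used here do not explain, was F1BSF1 for 8 Agouti and 9 White mice, F1BSF2 for 2 and 6, F1BSF3 for 5 and 6 and F1BSF4 for 12 and 7, in that order. Ages of the mice were not given in the sources used here.

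Coat colour in this cross reads out 1 locus. Tyrosinase, encoded by Tyr on chromosome 7, is the rate-limiting enzyme of melanin synthesis, and FVB/N mice are albino because both of their Tyr alleles are inactive. A backcross mouse is therefore pigmented if it received a functional SPRET/Ei allele, and white if both of its alleles are from FVB/N. Stretches of chromosome around Tyr are inherited together with it, less often with growing distance, so the coat label also marks whether neighbouring genes carry a SPRET/Ei allele. The question asked here was which genes, on chromosome 7 and away from it, differed in carcinomas between the coats.

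No gene passed the test. Of 12791 genes tested in limma, 0 (0.00%) had an adjusted p under 0.05, on chromosome 7 (1003 genes), within 30 Mb of Tyr (260 genes) and elsewhere (11788 genes). At an unadjusted p under 0.05 there were 770 genes (6.02%), of which 373 (2.92%) were higher and 397 (3.10%) lower in Agouti tumours. An ordinary regression without moderation likewise gave 0 genes after adjustment and 759 at an unadjusted p under 0.05. The median 95% confidence interval reached 0.208 to either side of the estimate on the log2 scale, and 8.75% of genes had one reaching past 0.5. These intervals are for single genes and carry no adjustment over genes, so they are not limits of detection. Differences whose interval excluded 0, such as 0.36 for Mpi (0.21 to 0.52) and -1.40 for Lgr6 (-2.20 to -0.59), also failed the adjusted test. Differences of these sizes could therefore have been missed, as could smaller ones. The split of the 770 genes depended on scaling, with 470 higher and 327 lower in Agouti tumours after quantile normalisation of the gene table.

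Some arrays stood apart. The markers of sex did not match the label in 12 arrays, 6 Agouti and 6 White. They gave the opposite sex in 1 female and 1 male Agouti array and in 1 female White array. In the rest, Xist and Y-linked genes were both above or both below their midpoints between the sexes. Leaving out all 12 arrays gave 0 genes on and away from chromosome 7. At an unadjusted p under 0.05 were then 22.3% of genes within 30 Mb of Tyr and 7.41% of genes away from chromosome 7. Tumours labelled as different Agouti mice formed 2 nearly identical pairs (r of 0.9848 and 0.9846 over genes). The median of all pairs was 0.903, and the highest other pair, tumours of the same mouse included, reached 0.9772. Both nearly identical pairs were kept as separate mice, and whether they are was not tested. Without the arrays of these pairs the shares were 20.4% and 5.98%. The Gapdh 3′ minus 5′ difference, a check of RNA quality, was 1.85 in White mouse 5, against 0.59 in the next array. Without the 3 arrays of largest difference, 641 genes were at an unadjusted p under 0.05, and the shares were 17.7% and 4.46%.

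Pigment genes were described first, since the coat label rests on one of them. Tyr, Tyrp1 and Dct encode the enzymes of melanin synthesis, Pmel the fibril protein of the melanosome and Mlana a further melanosomal protein. In melanocytes these genes are switched on by the transcription factor MITF, which binds a short E-box element known as the M-box. The promoters of Tyr (chr7:87493463-87493762, minus strand), Tyrp1 (chr4:80833963-80834262, plus strand) and Dct (chr14:118052197-118052496, minus strand) are shown because these 3 genes were high in the same tumour. They were taken from RefSeq (GRCm38.p6), each running 5′ to 3′ along the gene, with every match to TCATGTG or its reverse complement CACATGA in capitals. Pmel and Mlana had no entry.
Tyr: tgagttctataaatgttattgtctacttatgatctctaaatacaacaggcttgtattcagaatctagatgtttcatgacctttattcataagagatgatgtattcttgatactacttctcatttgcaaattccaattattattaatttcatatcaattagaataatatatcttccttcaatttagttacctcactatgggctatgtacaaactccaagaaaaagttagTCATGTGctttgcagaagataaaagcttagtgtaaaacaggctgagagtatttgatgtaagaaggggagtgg
Tyrp1: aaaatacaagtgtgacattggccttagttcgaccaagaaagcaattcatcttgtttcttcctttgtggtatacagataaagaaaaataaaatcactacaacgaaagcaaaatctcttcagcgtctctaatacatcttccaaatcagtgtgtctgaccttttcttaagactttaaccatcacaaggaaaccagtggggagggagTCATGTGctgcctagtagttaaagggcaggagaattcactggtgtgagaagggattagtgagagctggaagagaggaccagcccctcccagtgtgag
Dct: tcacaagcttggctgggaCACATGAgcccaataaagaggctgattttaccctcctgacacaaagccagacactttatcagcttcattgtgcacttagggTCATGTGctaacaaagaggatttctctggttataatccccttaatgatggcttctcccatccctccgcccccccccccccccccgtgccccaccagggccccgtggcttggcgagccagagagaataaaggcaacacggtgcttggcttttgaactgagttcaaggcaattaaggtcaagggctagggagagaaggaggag
Tyr and Tyrp1 held 1 match each and Dct held 2. The same letters, searched on both strands, occurred in 3.77% of 32851 promoter windows of the same length. A match describes the letters only.

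Tyr was near the floor of the array in nearly every carcinoma of either coat. Its values ran between 2.60 and 7.29 (median 2.99) in the 31 Agouti tumours, against 2.59 and 3.84 (median 2.94) in the 29 White tumours, while array medians lay between 4.43 and 4.56. Tyr exceeded the median of its array in 1 Agouti tumour and in no White tumour, and was not tested because it was above the array median on too few arrays. The carcinoma that stood out was an SCC of Agouti mouse 6, with log2 expression of 7.29 for Tyr, 8.25 for Tyrp1, 9.72 for Dct, 7.76 for Pmel and 7.07 for Mlana. All 5 genes were above the array median in this tumour. No other tumour had all 5. The SCC of Agouti mouse 12 came next, with 4.09 for Tyr, 6.08 for Tyrp1, 6.09 for Dct, 5.44 for Pmel and 5.23 for Mlana. White tumours were not without pigment gene signal: White mouse 2 had 5.95 for Dct and 5.67 for Pmel, and White mouse 28 had 5.88 for Dct and 5.32 for Pmel. At least 3 of the 5 genes were above the array median in 4 Agouti and 3 White tumours. In whole tumours, more melanocytes and more RNA per melanocyte cannot be told apart.

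**Figure D1:**
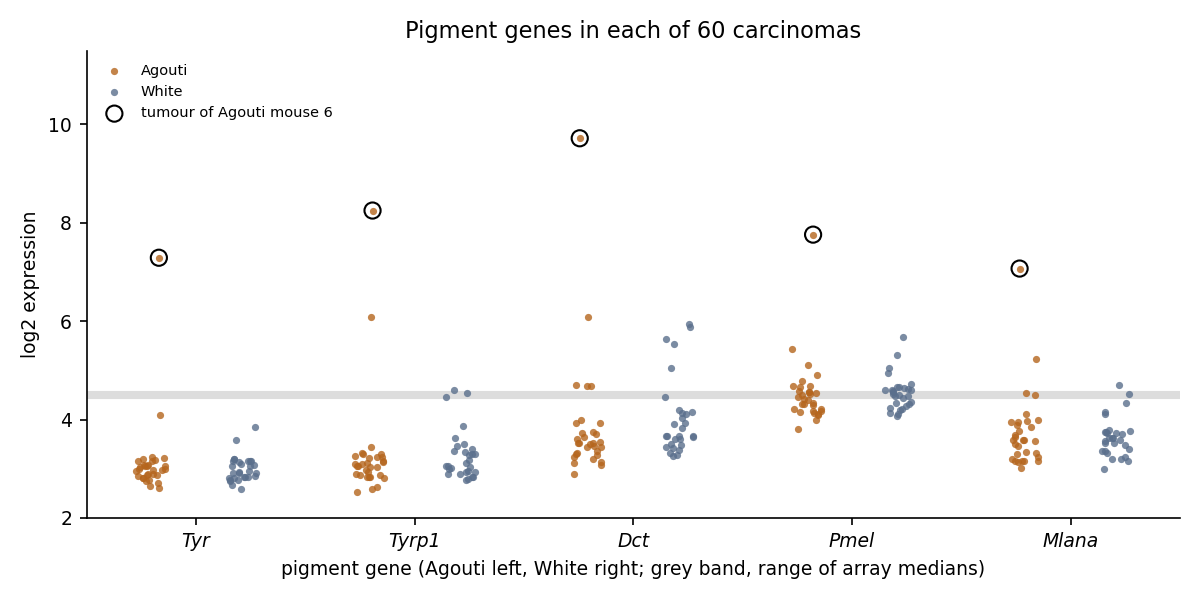
Log2 expression of 5 pigment genes in each carcinoma, Agouti (31 tumours) left and White (29 tumours) right, with the range of array medians as a grey band. The ringed tumour of Agouti mouse 6 is the highest for every gene, and most other tumours of both coats lie at or under the band.

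Over the pigment list as a whole the coats overlapped. Of 16 genes listed, 15 were measured and 9 were high enough to be tested, with 0 at an unadjusted p under 0.05 and a median difference, Agouti minus White, of 0.01. Dct averaged 3.94 ± 1.33 in Agouti and 4.02 ± 0.76 in White mice (SD, n = 27 and 28), and Pmel averaged 4.58 ± 0.71 and 4.55 ± 0.36 in the same order. Their differences were -0.08 (95% interval -0.65 to 0.49) and 0.03 (-0.26 to 0.33). Rab38, which encodes a small GTPase of melanosome transport and lies beside Tyr, averaged 8.41 ± 1.30 in Agouti and 8.70 ± 1.23 in White mice. Its difference was -0.29 (-0.96 to 0.38). Gpnmb, a melanosomal glycoprotein that macrophages also make, differed by 0.14 (-0.51 to 0.78). Among 8 tested melanocyte regulators none was at an unadjusted p under 0.05, and their differences lay between -0.10 for Kitl, the ligand of the Kit receptor, and 0.14 for Mgrn1, a ubiquitin ligase whose loss darkens the coat. Mitf averaged 6.80 ± 0.87 in Agouti and 6.73 ± 0.92 in White mice, and Sox10, a regulator of the melanocyte lineage, 5.42 ± 0.19 and 5.45 ± 0.26 in that order. Mc1r, the receptor for melanocyte-stimulating hormone, was not above the array median on any array.

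Genes near Tyr were next. Within 30 Mb of Tyr, 48 of 260 genes (18.5%) were at an unadjusted p under 0.05, against 6.02% of all genes tested. Of these, 9 were higher and 39 lower in Agouti tumours. Within 30 Mb of Tyr and away from chromosome 7, the shares were 5.77% and 3.07% in male mice only and 5.77% and 3.55% in spindle mice only. With all mice, the share was 21.1% within 10 Mb, 19.7% within 20 Mb and 17.4% within 40 Mb. On chromosome 7 beyond 30 Mb it was 6.97% of 459 genes on the centromere side and 15.5% of 283 genes on the telomere side. Chromosome 7 as a whole had 19 higher and 106 lower genes of 1003 (12.5%), and genes elsewhere 354 higher and 291 lower (5.47%). Genes of a chromosome are not independent of each other, so these shares carry no p. The median difference was -0.06 within 30 Mb of Tyr, -0.05 over chromosome 7 and 0.00 away from it.

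**Figure D2:**
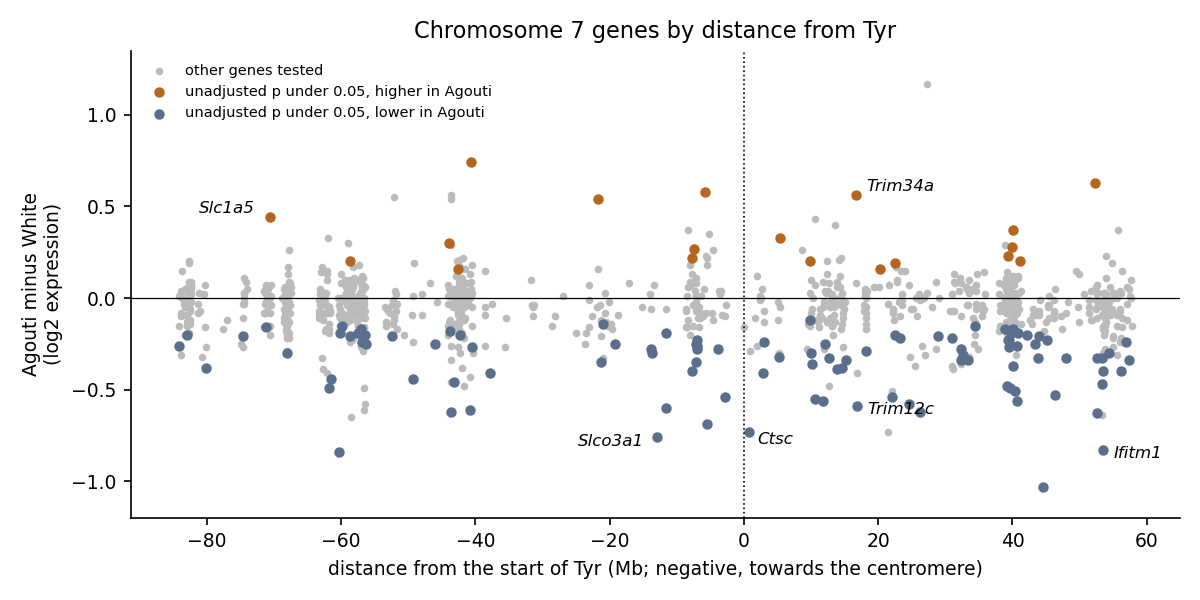
Difference in log2 expression, Agouti minus White, for 1002 genes of chromosome 7 against their distance from Tyr in Mb. Distances are gaps to the nearer end of Tyr, although the axis label names its start. Brown and blue points are genes at an unadjusted p under 0.05, and none passed after adjustment. Of all genes tested on the chromosome, 663 lie under 0 and 340 above it.

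Ctsc, the nearest gene tested on the telomere side of Tyr, encodes cathepsin C, the protease that activates granzymes and neutrophil serine proteases. Its mouse means ran between 9.19 and 12.35 (median 11.11) in Agouti mice, against 10.27 and 12.81 (median 11.73) in White mice. Agouti mice were mostly the lower, 22 of 27 being under the White median, but the groups overlapped. Ctsc differed by -0.73 ± 0.21 (SE), a 1.66-fold lower level in Agouti tumours (limma adjusted p = 0.792, unadjusted p = 0.000864). A further probe set of Ctsc gave -1.19 and the last -0.12, which was within its error. The difference was -0.72 in SCC mice and -0.98 in spindle mice, and -1.06 in female against -0.29 in male mice. On the other side of Tyr, Nox4, an NADPH oxidase, differed by -0.16 ± 0.23, and Fah, the last enzyme of tyrosine breakdown, by -0.54 ± 0.19 (unadjusted p = 0.00631), which did not pass after adjustment.

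Of 26 neighbours of Tyr listed from the mouse map, 25 were measured and 15 tested. Of the tested genes 3 lay above 0 and 12 below it, with a median difference of -0.13. Sytl2, a synaptotagmin-like effector of Rab27 proteins, averaged 4.20 ± 0.45 in Agouti and 4.61 ± 0.62 in White mice. It differed by -0.41 (95% interval -0.70 to -0.12). Tmem126b, needed to assemble complex I of the respiratory chain, differed by -0.24 (-0.44 to -0.03). Prcp, a lysosomal carboxypeptidase, differed the other way, by 0.33 (0.01 to 0.64), though only 2 of its 4 probe sets had that sign. For Eed, a subunit of the Polycomb complex PRC2, Hikeshi, a nuclear import carrier of heat shock proteins, and Pcf11, a factor of transcript 3′ end formation, differences were -0.01, 0.01 and -0.02, with intervals reaching at most 0.30 from 0. None of the list passed after adjustment, and whether SPRET/Ei sequence differences under the probes altered hybridisation was not tested.

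Further out on chromosome 7, the smallest p values were those of Trim12c and Trim34a, neighbouring members of a cluster of TRIM genes, whose relatives in mouse and human restrict retroviruses. Trim12c ran between 5.24 and 7.18 (median 6.30) in Agouti mice, against 5.79 and 7.69 (median 7.06) in White mice. It was the lower in Agouti tumours by -0.59 ± 0.15 (unadjusted p = 0.000223). Trim34a ran between 3.21 and 5.62 (median 4.40) in Agouti mice, against 3.18 and 5.82 (median 3.63) in White mice. It was the higher by 0.56 ± 0.15 (unadjusted p = 0.000394). For both genes a further probe set had the opposite sign, 0.42 for Trim12c and -0.31 for Trim34a, and genes of this cluster are close copies of each other, so neither direction can be assigned to the gene. Of the cluster, 6 members were tested, with 1 above and 5 below 0. Trim68 differed by -0.34 and Trim30a by -0.41, each an estimate whose adjusted p did not pass.

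The other leading genes of chromosome 7 have varied roles. Slc1a5 encodes the main glutamine importer of many tumours and averaged 7.37 ± 0.52 in Agouti and 6.93 ± 0.38 in White mice. Ifitm1, an interferon-induced membrane protein, averaged 9.53 ± 1.05 in Agouti and 10.37 ± 0.80 in White mice. Slco3a1, an organic anion transporter, averaged 6.77 ± 0.92 in Agouti and 7.53 ± 0.88 in White mice, and all of its 3 probe sets were lower in Agouti tumours. Pex11a, a factor of peroxisome division, differed by -0.40 ± 0.11, and Clns1a, a chaperone in the assembly of spliceosomal particles, by -0.36 ± 0.11. The 3 further probe sets of Clns1a gave -0.07, 0.13 and -0.08. Further probe sets gave -0.20 for Pex11a and 0.06 for Slc1a5. Tarsl2, a threonyl-tRNA synthetase, differed by 0.54 ± 0.16 and Ccdc189 by 0.37 ± 0.10. For all 10 leading genes of the chromosome the limma adjusted p was 0.792 and the groups overlapped.

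**Figure D3:**
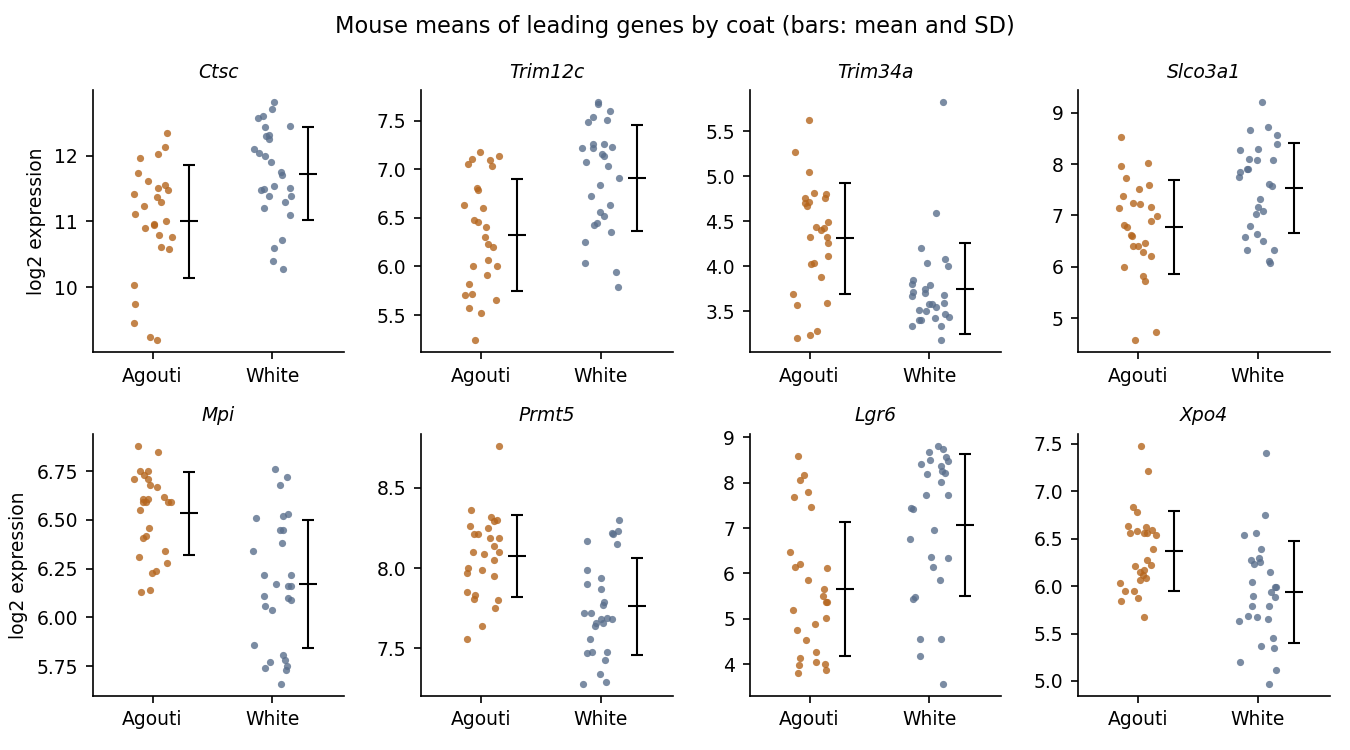
Mouse means of log2 expression for 4 chromosome 7 genes (upper row) and 4 genes elsewhere (lower row), Agouti (27 mice) left and White (28 mice) right, with the mean and SD as bars. The groups are shifted against each other in every panel and overlap in every panel.

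Gene families of chromosome 7 were mixed in direction. Of 11 tested kallikreins, serine proteases several of which act in shedding of the epidermis, 5 were above and 6 below 0. Klk5 averaged 5.02 ± 0.88 in Agouti and 5.64 ± 1.29 in White mice, and Klk12 7.32 ± 2.37 and 6.76 ± 1.79 in that order. Neither difference passed after adjustment. Saa1, an acute phase protein, ran between 3.12 and 6.89 (median 4.99) in Agouti mice, against 2.87 and 7.92 (median 3.62) in White mice. Its cluster neighbour Saa3 differed the other way, by -0.43 ± 0.36. Of 15 tested imprinted genes, 5 were above and 10 below 0, and Osbpl5, a lipid transfer protein, had the smallest p (-0.40 ± 0.13, unadjusted p = 0.00378). Of 16 tested genes of distal chromosome 7 implicated in tumours, 4 were above and 12 below 0, with a median difference of -0.04. Ccnd1, which encodes cyclin D1, averaged 11.24 ± 0.65 in Agouti and 11.23 ± 0.46 in White mice, a difference of 0.01 (-0.29 to 0.31). Cttn, the actin regulator cortactin, differed by -0.24 (-0.48 to -0.01), though only 3 of its 5 probe sets had that sign.

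Away from chromosome 7, Mpi had the smallest p of all genes. It lies on chromosome 9 and encodes mannose phosphate isomerase, which supplies mannose for protein glycosylation. Mpi ran between 6.13 and 6.88 (median 6.59) in Agouti mice, against 5.66 and 6.76 (median 6.16) in White mice. Agouti mice were above the White median in 25 of 27 cases, and 13 White mice were below every Agouti mouse. The difference was 0.36 ± 0.08 (95% interval 0.21 to 0.52, limma adjusted p = 0.157), a 1.29-fold higher level. It was 0.10 among mice of origin F1BSF1 and 0.49 among mice of origin F1BSF4. With single mice left out in turn, Mpi passed without White mouse 1 (adjusted p = 0.0444) or White mouse 28 (0.0359) and in no other of the 55 fits.

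Prmt5, on chromosome 14, encodes an arginine methyltransferase that methylates histones and spliceosomal proteins. Prmt5 ran between 7.56 and 8.76 (median 8.10) in Agouti mice, against 7.28 and 8.30 (median 7.70) in White mice. Most Agouti mice, 25 of 27, were above the White median. It differed by 0.31 ± 0.08 (adjusted p = 0.792). Among SCC mice alone (19 Agouti and 16 White) the difference was 0.44 with a limma adjusted p of 0.0218, and in that subset Prmt5 was the only gene to pass. In spindle mice the difference was 0.31.

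Lgr6, on chromosome 1, encodes an R-spondin receptor that marks stem cells of the hair follicle, and it had the largest difference in size of the 20 leading genes. It ran between 3.80 and 8.59 (median 5.38) in Agouti mice, against 3.57 and 8.81 (median 7.59) in White mice. Both coats covered nearly the whole range, with the Agouti mice gathered at the low end. Lgr6 differed by -1.40 ± 0.40 (adjusted p = 0.792), a 2.63-fold lower level, with -0.64 for its further probe set. The difference was -1.97 in female and -0.65 in male mice. Lgr5, its relative, differed by -0.16 (-0.51 to 0.20). Xpo4, a nuclear export receptor, averaged 6.37 ± 0.42 in Agouti and 5.94 ± 0.53 in White mice, a difference of 0.43, with 0.16 and -0.03 for its further probe sets. Pold2, a subunit of the replicative DNA polymerase delta, averaged 7.81 ± 0.37 in Agouti and 7.42 ± 0.45 in White mice. Nfatc4, a calcium-dependent transcription factor, averaged 6.82 ± 0.47 and 7.29 ± 0.59 in that order, but only 2 of its 4 probe sets were lower in Agouti tumours. Nipsnap1, a mitochondrial protein (0.43), Taf9b, a subunit of general transcription complexes (0.51, and 0.04 for its further probe set), Prodh, which starts proline breakdown (0.34), and Fhl2, a LIM-domain cofactor (-0.36), complete the 10 genes of smallest p. Fhl2 was the single gene of all 20 leading genes whose sign changed in any alternative, with 0.07 among mice of origin F1BSF4. The leading genes were picked for small p in the same mice that the alternatives reuse, so a kept sign is no independent check.

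Several chromosomes leaned one way. On chromosome 1, 78 of 734 genes (10.6%) were at an unadjusted p under 0.05 and lower in Agouti tumours, and none was higher. On chromosome 19, 44 genes of 457 were higher and 2 lower (10.1%), and on chromosome 4, 39 of 773 were higher and 7 lower (5.95%). The share over all genes tested was 6.02%, so chromosome 4 differed in direction and not in share. In male mice only, 6 chromosome 19 genes were higher and 1 lower, and 8 chromosome 4 genes higher and 6 lower. On chromosome 1 in male mice, 0 were higher and 81 lower. The mean of centred log2 expression over chromosome 1 genes was -0.05 ± 0.13 in Agouti and 0.05 ± 0.17 in White mice, and over chromosome 7 genes -0.03 ± 0.15 in Agouti and 0.03 ± 0.14 in White mice (SD). White mouse 14 had the highest chromosome 1 mean, 0.56, and without it 54 chromosome 1 genes were lower. Among F1BSF1 mice chromosome 1 did not lean, with 25 genes higher and 27 lower, while among F1BSF4 mice 11 were higher and 29 lower. On chromosome 7, 21 genes were higher and 73 lower among F1BSF1 mice, and 20 higher and 57 lower among F1BSF4 mice. DNA copy number was not analysed here.

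**Figure D4:**
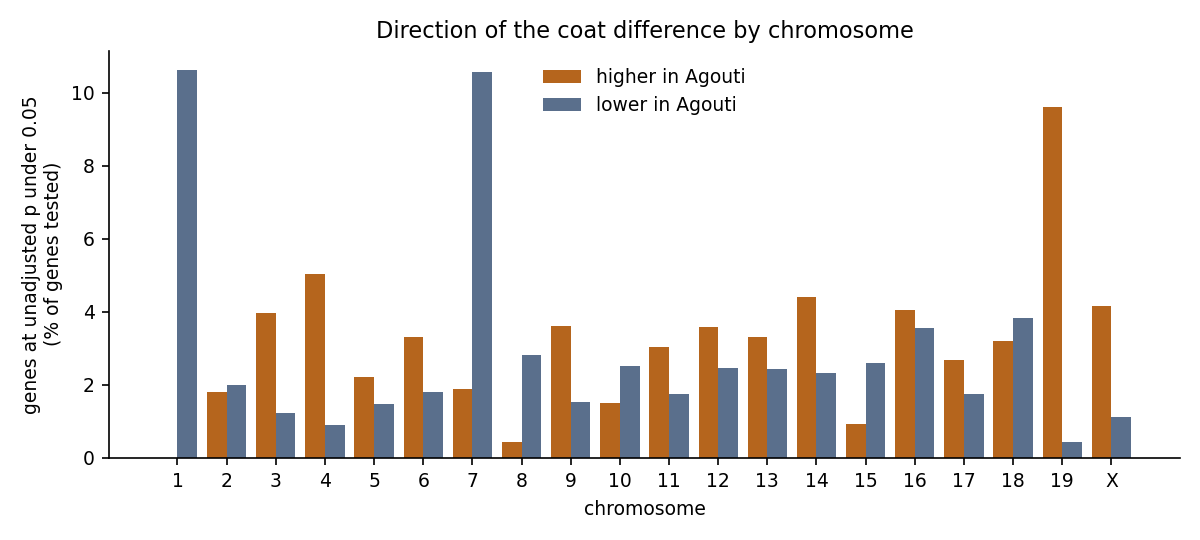
Share of the genes tested on each chromosome that were at an unadjusted p under 0.05, higher (brown) or lower (blue) in Agouti than in White carcinomas. Chromosomes 1 and 7 stand out for lower genes (78 and 106 genes) and chromosome 19 for higher genes (44 genes).

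Epithelial gene lists lay below 0 without passing the test. Basal keratinocyte genes had a median difference of -0.42 (1 of 11 above 0), stress keratins -0.45 (0 of 5), cornified envelope genes -0.41 (5 of 26) and epithelial adhesion genes -0.27 (5 of 25), beside a median of 0.00 over all genes tested. In none of these lists was more than 1 gene at an unadjusted p under 0.05. Krt14, the basal keratin, ran between 6.22 and 13.97 (median 13.60) in Agouti mice, against 9.49 and 14.17 (median 13.76) in White mice. Its medians were close and its spread wide, with a difference of -0.61 (-1.55 to 0.33). Lama3, a chain of the basement membrane laminin-332, differed by -1.02 (-2.16 to 0.12). With histology as a covariate these differences were -0.84 for Krt14 and -1.21 for Lama3. By origin they went apart, with -2.29 for Krt14 and -2.83 for Lama3 among F1BSF1 mice and 0.38 and 0.35 among F1BSF4 mice.

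Proliferation genes lay on the other side. Of 23 tested mitosis genes, 22 were above 0, with a median difference of 0.15, and 5 were at an unadjusted p under 0.05 against 2.92% of all genes in that direction. None passed after adjustment. Kif11, a spindle motor, averaged 6.77 ± 0.55 in Agouti and 6.33 ± 0.73 in White mice, and Aurkb, the mitotic kinase Aurora B, 7.03 ± 0.50 and 6.70 ± 0.60 in that order. Mki67, on chromosome 7, differed by -0.02. Of 25 tested p53 targets, 17 were above and 8 below 0, and Tnfrsf10b, a death receptor, and Eda2r, a TNF receptor family member, were at an unadjusted p under 0.05.

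Stromal and immune lists held few genes of small p. Among 23 tested mesenchymal genes, 20 were below 0 (median -0.20). Pdgfrb, the PDGF receptor of fibroblasts and pericytes, averaged 8.85 ± 0.78 in Agouti and 9.48 ± 0.73 in White mice, a difference of -0.63 (-1.03 to -0.23). Postn, a matrix protein, differed by -0.39 (-0.74 to -0.04). Cldn5, the tight junction protein of endothelium, averaged 6.59 ± 0.64 in Agouti and 7.17 ± 0.79 in White mice, while Pecam1, a further endothelial marker, differed by -0.22 (-0.54 to 0.10). Of 12 macrophage genes 10 were above 0 (median 0.14), and of 10 neutrophil genes 9 were below 0 (median -0.17). Adipocyte (median 0.19), B and plasma cell (0.09), mast cell (-0.05) and striated muscle (-0.15) lists had 0 genes at an unadjusted p under 0.05. In the T and NK cell list, Cd8a (0.16 ± 0.06) was the single one, and only 3 of its 5 probe sets had that sign. IL1-mediated inflammation had a median of 0.00, hypoxia and glycolysis 0.00, interferon response -0.16, MHC class II -0.20, hair follicle -0.23, granzymes 0.04 and RAS-MAPK output -0.05. Gzme, a granzyme, averaged 7.44 ± 2.16 in Agouti and 6.71 ± 1.99 in White mice, a difference of 0.73 (-0.36 to 1.83). Il18, Spry2 and Map2k4 differed by 0.06, 0.19 and -0.15, all with intervals that included 0.

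**Figure D5:**
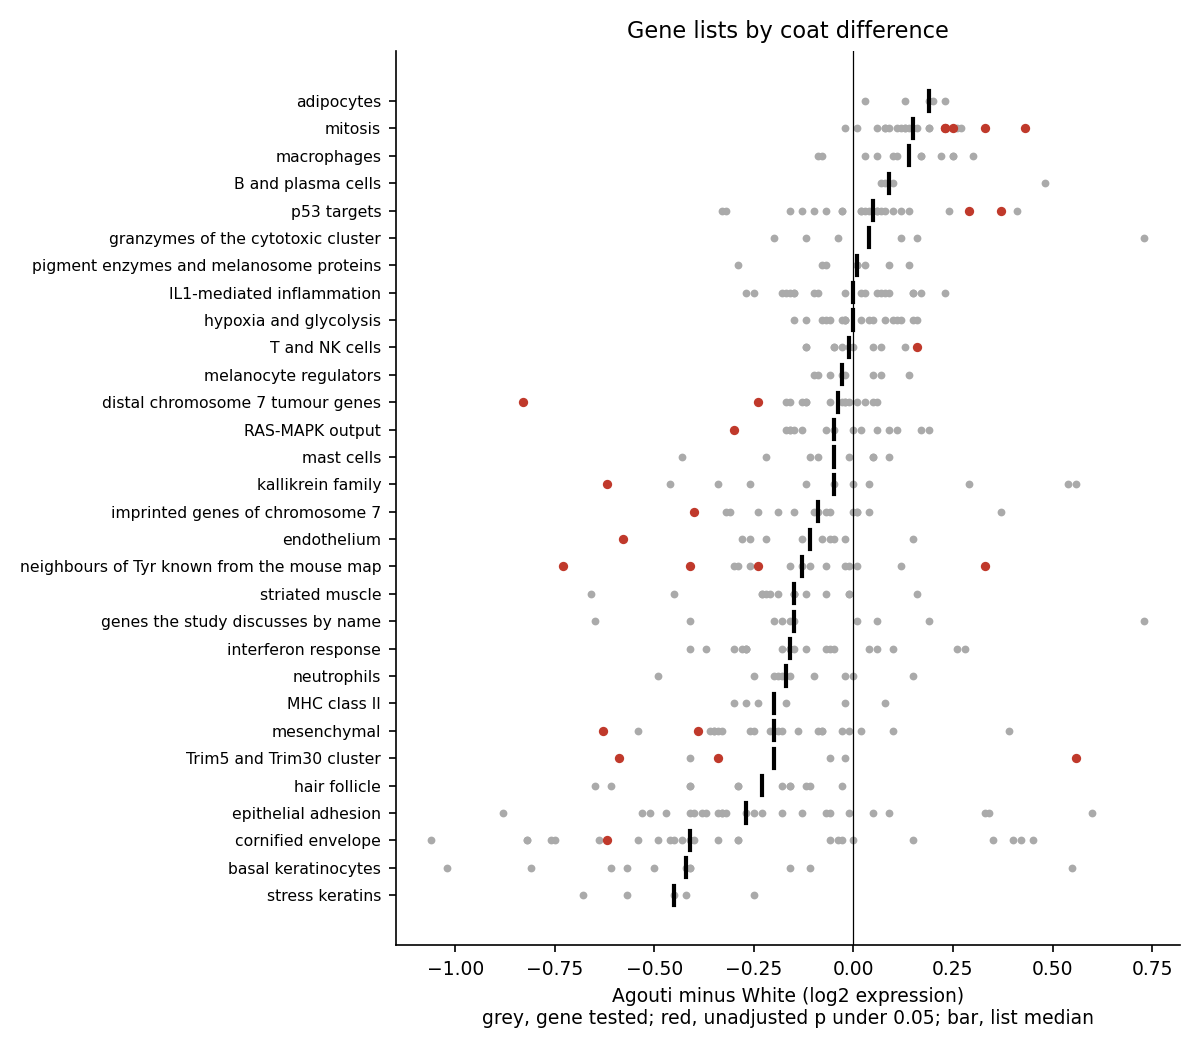
Differences in log2 expression, Agouti minus White, of the tested genes of each list with at least 4 of them (grey; red at an unadjusted p under 0.05), with the list median as a bar. Keratin lists have the lowest medians (-0.45 for stress keratins) and adipocyte and mitosis genes the highest (0.19 and 0.15), and no gene passed after adjustment.

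The coat difference was then compared between histologies and between sexes with an interaction term. For SCC against spindle carcinoma 0 of 12791 genes passed (0.00%), with 589 (4.60%) at an unadjusted p under 0.05 and a smallest adjusted p of 0.998, for Itm2a. For female against male mice 0 passed (0.00%), with 635 (4.96%) at an unadjusted p under 0.05 and a smallest adjusted p of 0.918, for Hsph1. Differences that looked unlike in subsets, such as those of Ctsc and Lgr6 between the sexes, were thus not shown to differ.

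Tumour burden and the other labels were compared between the coats. Agouti mice had borne 6.15 ± 8.31 papillomas at 20 weeks (median 3, range 0 to 35) and White mice 6.43 ± 6.27 (median 4.5, range 0 to 23; SD, n = 27 and 28). The difference of -0.28 was within the spread (two-sided permutation test, p = 0.908, adjusted over 3 measures 0.908). At 24 weeks the means were 7.26 ± 8.47 in Agouti and 8.04 ± 6.78 in White mice (permutation p = 0.725, adjusted 0.908). The first papilloma appeared after 14.6 ± 5.71 weeks in 26 Agouti mice and 12.8 ± 4.08 weeks in 25 White mice (permutation p = 0.221, adjusted 0.663). Of the Agouti mice 15 and of the White mice 17 were female. Lymph nodes were positive in 9 and negative in 10 Agouti mice, against 6 and 9 White mice. Over histology, p53 label, sex and nodal status (two-sided Fisher's exact tests) and origin (permutation), the adjusted p was 0.787 for each.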

How the data were processed

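RNA of 60 carcinomas from 55 mice was measured on 1-colour Affymetrix arrays. The authors deposited log2 values per probe set that RMA had produced (background correction, joint quantile normalisation and summary of probes). Neither an RMA version nor a genome build was given in the sources used here. Quantile normalisation removes shifts shared by most genes, and the number of arrays limits precision. No raw intensities were analysed here.

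Of 45101 probe sets, 34958 had a single symbol, and 34898 matched the RefSeq gene table (GRCm38.p6), used for names, chromosomes and approximate distance from Tyr. For 1 tested chromosome 7 gene, Hbb-b2, the start in this table lies ahead of the first sequenced base of the chromosome, and no distance was used. The probe set of highest mean stood for each of 18194 genes, and 12791 exceeded the median of their array in 8 or more arrays. Tumours of a mouse were averaged. Agouti was compared with White in limma 3.58.1 (lmFit, eBayes; R 4.3.3), with Benjamini-Hochberg adjustment over all genes tested and a threshold of 0.05, and intervals are 95%. This script was tested on simulated data. Each mouse label was treated as a separate animal. Papilloma counts were tested with 100000 permutations in Python 3.11.15 with scipy 1.17.1.

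Named genes were the 10 smallest p on and 10 away from chromosome 7, all measured pigment, melanocyte-regulator and Tyr-neighbour genes, up to 4 members of each other list by size of difference, and genes the study discusses. Fah was named after its value was seen. Members, lists and tests were chosen with earlier results of these data known. Alternatives covered filters, probe set choice, scaling, moderation, covariates, subsets of mice and omitted arrays.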

Additional observations from a re-analysis of the deposited data

How the results depend on the processing

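The counts of genes past the adjusted threshold on chromosome 7 and within 30 Mb of Tyr (also with windows of 10, 20 and 40 Mb) were 0 under all alternatives run. Away from chromosome 7 the count was 1 among SCC mice only (Prmt5) and 0 otherwise; leaving out each mouse in turn gave 0 to 1 (Mpi, without White mouse 1 or White mouse 28), and 0 to 0 on chromosome 7 and within 30 Mb of Tyr. Both interaction tests gave 0 under each of their alternatives. The number of genes at an unadjusted p under 0.05 (770) was 1598 in SCC mice only, 395 in male mice only, 454 in spindle mice only and 1170 with every probe set, and lay between 605 and 948 when single mice were left out. In male mice only, the share was 5.77% within 30 Mb of Tyr and 3.07% away from chromosome 7, and in spindle mice only 5.77% and 3.55%. The higher share of these genes was 48.4%, but 59% after quantile normalisation, 60.1% in SCC mice and 30.1% in male mice. The cause of these shifts was not tested. The papilloma difference at 20 weeks was 0.031 without mice labelled p53 mutant (p = 1, permutation test). The subset of spindle mice, all covariates together, and omission of mice, of the tumour of high pigment genes or of the 3 arrays with the largest Gapdh 3′ minus 5′ difference were chosen after seeing the data. No paired analysis was possible because a mouse has a single coat label, so no mouse is in both groups.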

Other observations

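Tumours of the same mouse gave a view of the leading genes within an animal. A pair of tumours came from 4 Agouti mice and 1 White mouse. For Mpi, both tumours lay on one side of the midpoint between the coat means in 4 of 5 pairs. The same count held for Prmt5, Xpo4, Lgr6 and Ccdc189. It was 2 of 5 pairs for Slc1a5, Pex11a, Clns1a, Ifitm1, Slco3a1 and Fhl2. The count does not ask whether that side was the one of the mouse's own coat. For Lgr6, both tumours of Agouti mouse 13 (7.12 and 8.26) lay on the White side. Both of White mouse 4 (4.22 and 4.15) lay on the Agouti side, as did those of Agouti mice 2 and 26. The leading genes were chosen for small p, and the same count over all genes was not made. For White mouse 4 and for Agouti mouse 26, the titles of both arrays share the tumour number and differ in a further suffix. Whether these arrays are separate tumours is not explained in the sources used here. The median gap between paired tumours was 0.08 for Xpo4, 0.12 for Pold2 and 0.21 for Prmt5, under the coat difference of each gene, and 1.04 for Trim34a and 1.18 for Ifitm1, above it. Over all genes the consensus correlation of tumours from the same mouse was 0.15.

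The largest difference of all genes tested was 1.59 for Krt4, a mucosal keratin, which was singled out after its value was seen. Krt4 did not pass after adjustment and was not among the leading genes by p.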
